A study of Homo sapiens with 4 samples.

Results

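The cadherin superfamily was examined in the established breast cancer line MDA-MB453, of human origin, split by a green fluorescent protein (GFP) marker. Members were all array probes whose platform gene symbol was CDH followed by a digit, PCDH, DSC or DSG followed by a digit, CELSR, DCHS, CLSTN or one of the FAT genes. The rule took 187 of 47321 probes, which named 108 of 20046 genes with a named probe. No measured value entered the rule, but the members were chosen with earlier results of these data known. CDH4, CDH13, PCDH17 and FAT3 had no named probe and were not analysed here.

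Total RNA was hybridised to Illumina bead arrays from 2 GFP-positive samples, called cancer stem-like in the labels, and 2 GFP-negative samples, called non-stem-like. All 4 came from MDA-MB453 cells grown in Dulbecco's medium with foetal bovine serum, with no drug or genetic treatment in the labels besides the marker. The sources used here do not say what drives GFP. The series text says that positive and negative RNA were isolated in pairs on different days and that 2 batches of RNA were combined, so an array may hold pooled RNA.

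Cadherins are adhesion proteins of the cell surface that bind one another through calcium-dependent extracellular repeats. Classical cadherins form adherens junctions and hold catenins on their cytoplasmic tails, desmogleins and desmocollins form desmosomes anchored to keratin filaments, and clustered protocadherins are chosen from a large gene array and are best known in neurons. FAT, Dachsous and CELSR proteins are very large cadherins of tissue growth control and planar cell polarity. In breast epithelium CDH1 is the main luminal cadherin and CDH3 is known from the basal layer.

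Between 17400 and 18197 probes per array were detected, with a p under 0.05 against the negative controls, and the test took the 18098 probes that either group detected on both of its arrays. Across tested probes Pearson's r was 0.991 within the GFP-positive group, 0.987 within the GFP-negative group, and 0.843 to 0.856 between groups, a correlation across genes that are not independent replicates. The cell line was checked by luminal and apocrine markers. Of 12 listed, 11 had a named probe and 9 were tested. Of these, 4 were higher in GFP-positive cells (KRT8, KRT19, MLPH and EPCAM), 2 lower (ERBB2 and FOXA1) and 3 not past the threshold. Among all tested genes, 20.3% were higher and 22.4% lower by their brightest probe. MLPH entered the test only through the GFP-positive arrays, so the filter in part fixed the count of higher genes. GATA3 and PIP were detected on no array. The marker list's summed signal was 49539 and 51712 on the GFP-positive arrays against 23327 and 26507 on the GFP-negative arrays. KRT8 alone gave 12411 and 12727 against 658 and 417 of that sum, and KRT19 gave 11595 and 12569 against 1823 and 1425. Marker sums here and below add the unnormalized bead signals of each gene's brightest probe, so undetected probes add background to them. ERBB2 had log2 signals of 10.74 and 10.66 on the GFP-positive arrays against 12.23 and 12.10 on the GFP-negative arrays. In bulk RNA like this, fewer cells of a type and less RNA per cell cannot be told apart.

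Markers of other cell types moved with the groups in part. None of 6 endothelial genes was tested. Of 8 fibroblast genes, the 3 collagens COL1A1, COL1A2 and COL3A1 were lower in GFP-positive cells. All 3 entered the test only through the GFP-negative arrays, so the filter in part fixed this count. Of all tested genes, 22.4% were lower by their brightest probe. DCN, LUM, PDGFRB, FAP and THY1 were detected on no array. The list's summed signal was 1428 and 1426 on the GFP-positive arrays against 1933 and 2434 on the GFP-negative arrays. Of 5 squamous genes with a probe, KRT10 was higher and KRT5 lower, and KRT14, KRT1 and IVL were detected on no array. The squamous sum was 3819 and 3823 against 2707 and 2584, of which KRT10 alone gave 3351 and 3273 against 2020 and 1910. Of 5 neural genes, TUBB3 was higher and MAP2 lower, with a sum of 5513 and 5105 against 1244 and 1382, and the other 3 were detected on no array. TUBB3 alone gave 4962 and 4475 against 426 and 528 of that sum. Of the 2 tested immune genes, CD14 and the brightest CD68 probe did not pass and the other CD68 probe was higher by 2.32 on the log2 scale, PTPRC and CD3E were detected on no array, and the sum of the 5 immune genes was 1288 and 1427 against 1665 and 1468. KRT5 and MAP2, like the collagens, entered the test only through the GFP-negative arrays. The part of any of these markers in the cadherin results was not tested.

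Most cadherin genes, 66 of 108, gave no signal above the negative controls on any array. Of the 187 probes, 134 (71.7%) were detected on no array, with bead signals between 90.2 and 213.6, where the array medians lay between 178 and 192. Only 30 probes (16%) in 25 genes could be tested, against 38.2% of all probes. Another 21 probes were detected on 1 array and 2 on 2 arrays, and 83 genes had no tested probe. The number of member probes detected was 26 and 25 on GFP-positive arrays 1 and 2, and 25 and 37 on GFP-negative arrays 1 and 2. GFP-negative array 2 thus detected more members than the other arrays.

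Among the genes that could be tested, FAT1, CDH3, CDH1, PCDH7, DSC2, DSC3, CDH15 and CELSR2 were higher in GFP-positive cells, and PCDHB2, CDH18, PCDH20, PCDHB17P, PCDHB9, CELSR3 and PCDHA5 were lower. In probes, 11 were higher, 7 were lower and 12 did not pass an adjusted p of 0.05 (limma, Benjamini-Hochberg over all tested probes). The 18 called probes were 60% of the tested members, beside 40.5% called among all tested probes. Of all tested probes, 18.8% were called higher and 21.7% lower, so the 36.7% of tested members called higher stood above the background and the 23.3% called lower stood close to it. These shares hold for tested probes, which include genes that passed the filter only through the group in which they were high. Without that filter 11 of the 187 probes were higher (5.88%, where all probes gave 5.64%) and 7 lower (3.74%, where all probes gave 6.08%), and the median difference was -0.02 in members and -0.01 in all probes on the log2 scale. The shares over the whole superfamily therefore lay near or below the background. The groups did not overlap in 27 of 30 tested member probes (90%) and in 72.6% of all tested probes.

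**Figure D1:**
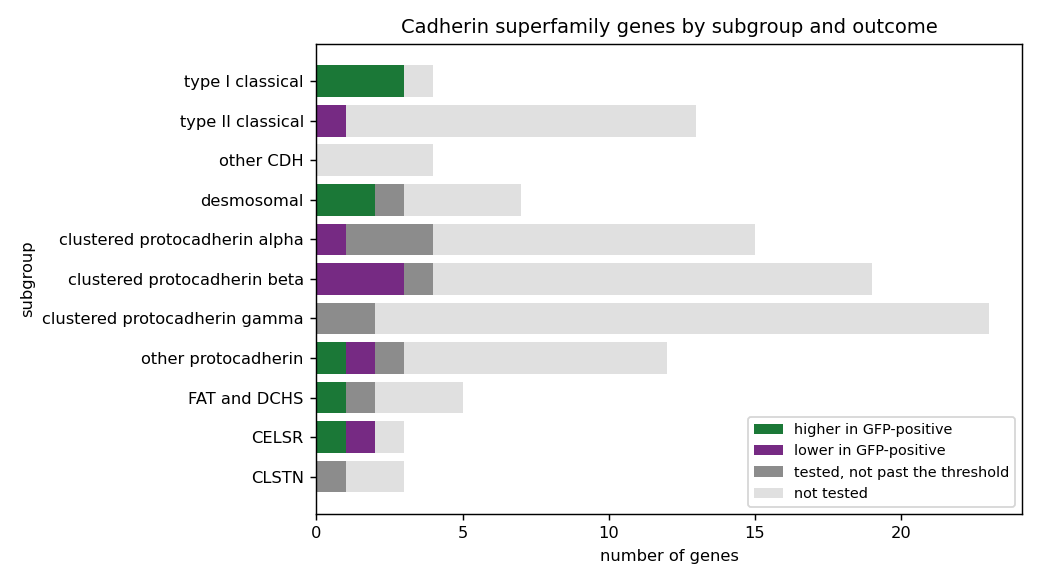
The stacked bars give the number of genes (horizontal axis) in each subgroup of the superfamily (vertical axis) that were higher in GFP-positive cells, lower, tested and not past an adjusted p of 0.05, or not tested. The clustered protocadherin subgroups hold most of the untested genes, and the type I classical row holds 3 higher genes and 1 untested gene.

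With 2 arrays a group, the smallest 2-sided p of an exact permutation test is 0.333, and the calls rest on the variance that limma pools over probes. No label gives separate cultures for the arrays of a group, so the p-values speak of the spread among these samples alone, which can be technical. Log2 signals below are normalized values. A probe's own signals are compared between groups, and no gene is ranked by brightness against another. Where a group left a probe undetected on 1 or both arrays, the difference is given as a lower bound against the dimmest detected probe of each array (6.09 to 6.17 on the log2 scale). Such a bound applied to 13 of the 18 called member probes. It holds on the background-corrected scale only. Without background correction the differences of dim probes were smaller, and that log2 difference is given beside some of the bounds. A bound without it may not hold in that setting.

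**Figure D2:**
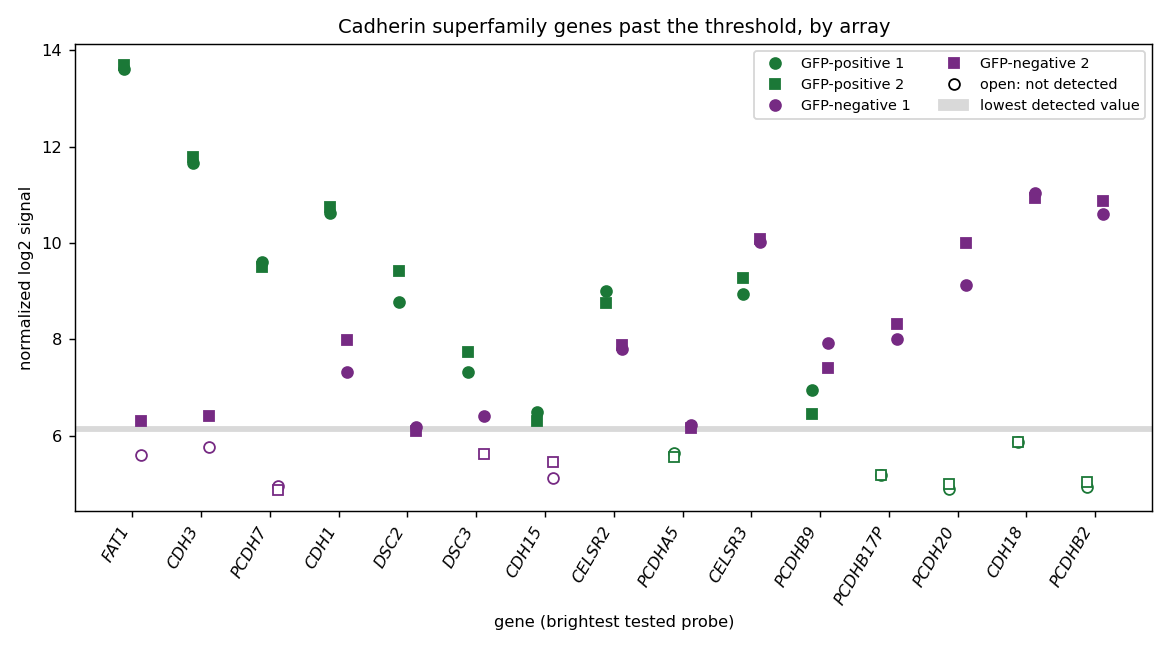
Normalized log2 signal (vertical axis) of the 15 genes past the threshold (horizontal axis, brightest tested probe of each) is shown for every array, with GFP-positive arrays in green, GFP-negative arrays in purple and open symbols where the probe was not detected. The grey band spans the lowest detected values of the arrays. The GFP-positive and GFP-negative arrays do not overlap in any of these genes.

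CDH1, CDH3 and CDH15, the type I classical cadherins that were tested, were higher in GFP-positive cells. This subgroup had 4 genes with a probe, of which 3 were tested and 3 were higher, where 20.3% of all tested genes were higher and 22.4% lower by their brightest probe. CDH3 and CDH15 entered the test only through the GFP-positive arrays, so the filter in part fixed this count. CDH1, the E-cadherin of epithelial adherens junctions, had log2 signals of 10.62 and 10.75 on the GFP-positive arrays against 7.32 and 7.99 on the GFP-negative arrays. It was detected on all 4 arrays, and both GFP-positive values lay well above both GFP-negative values. The difference was 8.16-fold (adjusted p = 6.96e-05, limma), and it ranged from 2.31 to 3.35 on the log2 scale over the other settings. CDH3, the P-cadherin of basal epithelium, had 11.65 and 11.78 against 5.77 and 6.41. It was detected on 1 of the 2 GFP-negative arrays, and the groups did not overlap (adjusted p = 2.77e-06, limma), with a log2 difference of 3.99 without background correction.

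CDH15, the M-cadherin of muscle precursors, had 6.49 and 6.31 on the GFP-positive arrays against 5.13 and 5.46 on the GFP-negative arrays. It was detected only in GFP-positive cells, close to the detection limit, and was at least 1.21-fold higher (adjusted p = 0.00361, limma). CDH2, the N-cadherin of neural and mesenchymal cells, was detected on no array. The bead signal was 137 and 138 in GFP-positive cells and 135 and 145 in GFP-negative cells, below every array's median signal. A rise of CDH1 and CDH3 thus stood beside a CDH2 probe at background in both groups. CDH1 and CDH3 are neighbours on chromosome 16, with no protein-coding gene between them in the RefSeq gene table, and CDH15 lies on the same chromosome.

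Of 13 type II cadherin genes with a probe, 9 were detected on no array, and CDH18 alone was tested. CDH18, a type II cadherin best known from the nervous system, had log2 signals of 5.87 and 5.88 on the GFP-positive arrays against 11.04 and 10.93 on the GFP-negative arrays. It was detected in GFP-negative cells only, where both arrays were bright, and its GFP-positive signal was at least 28.7-fold lower (adjusted p = 1.06e-06, limma), with a log2 difference of -3.38 without background correction. CDH11, a cadherin of mesenchymal cells and bone, was detected on GFP-negative array 2 only, with bead signals of 125 and 133 against 151 and 212. CDH5, the cadherin of endothelial junctions, was detected on no array (114 and 148 against 122 and 107). Both therefore stayed outside the test. CDH6 was detected on 1 GFP-negative array and CDH24 on GFP-positive array 1 and 1 GFP-negative array. CDH7, CDH8, CDH9, CDH10, CDH12, CDH19, CDH20 and CDH22 were detected on no array, as were CDH16 and CDH17 of kidney and intestine, CDH23 of the inner ear, and CDH26.

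The desmocollins DSC2 and DSC3 were higher in GFP-positive cells, while the desmoglein DSG2 was bright in both groups. Desmosomal cadherins had 7 genes with a probe, 3 tested, 2 higher and 1 not past the threshold, where 20.3% of all tested genes were higher. DSC3 entered the test only through the GFP-positive arrays, as did the dimmer DSC2 probe, so the filter in part fixed this count. DSC2, the most widespread desmocollin, had log2 signals of 8.77 and 9.42 on the GFP-positive arrays against 6.18 and 6.10 on the GFP-negative arrays. Its GFP-negative signals sat at the detection limit, and the difference was 7.77-fold (adjusted p = 6.97e-05, limma). Its other probe had 8.39 and 8.79 against 5.35 and 5.32 and was at least 5.55-fold higher (adjusted p = 1.53e-05, limma). The smallest log2 difference of that probe over all settings was 1.67, a smaller fold than the bound. Both DSC2 probes therefore separated the groups without overlap. DSC3, a desmocollin of stratified epithelium, had 7.32 and 7.74 against 6.40 and 5.61. It was at least 2.43-fold higher, with 1 of the GFP-negative arrays detected (adjusted p = 0.00502, limma), and its other probe was detected on no array. The smallest log2 difference of the tested DSC3 probe over all settings was 0.67, a smaller fold than the bound.

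DSG2, the desmoglein of simple epithelia, had 12.52 and 12.59 on the GFP-positive arrays against 12.02 and 12.39 on the GFP-negative arrays. All 4 signals were bright, and the difference of 0.35 ± 0.20 (SE) on the log2 scale did not pass (adjusted p = 0.193, limma). Its other probe had 8.74 and 9.16 against 7.61 and 8.51, a difference of 0.89 ± 0.31 with an adjusted p of 0.0551 (limma). That probe passed in 6 of 11 alternative settings. DSC1, DSG1, DSG3 and DSG4, known from skin and hair, were detected on no array. All 7 desmosomal genes lie in a row on chromosome 18, in the order DSC3, DSC2, DSC1, DSG1, DSG4, DSG3 and DSG2. DSC3 and DSC2 thus lead the row and DSG2 closes it, with the undetected genes between them.

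Promoter sequences are shown for the desmosomal genes because DSC2 and DSC3 moved together at the same locus while DSG2 did not pass. They come from RefSeq (GRCh38.p14), which had promoter entries for 82 of the 108 member genes, and run from 250 bases before to 50 bases after the annotated start, 5′ to 3′ on the gene's strand. Capitals mark the E-box letters CAGGTG and their other-strand form CACCTG, searched on both strands, which are the core bound by the SNAI and ZEB repressors of cadherin genes.
DSC2 (chr18:31102372-31102671, minus strand): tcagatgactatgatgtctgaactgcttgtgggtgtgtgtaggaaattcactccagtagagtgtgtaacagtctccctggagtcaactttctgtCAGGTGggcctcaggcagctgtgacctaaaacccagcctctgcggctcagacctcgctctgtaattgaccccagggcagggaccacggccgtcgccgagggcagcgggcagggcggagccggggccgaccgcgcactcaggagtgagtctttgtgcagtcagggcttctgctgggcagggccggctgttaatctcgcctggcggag
DSC3 (chr18:31042693-31042992, minus strand): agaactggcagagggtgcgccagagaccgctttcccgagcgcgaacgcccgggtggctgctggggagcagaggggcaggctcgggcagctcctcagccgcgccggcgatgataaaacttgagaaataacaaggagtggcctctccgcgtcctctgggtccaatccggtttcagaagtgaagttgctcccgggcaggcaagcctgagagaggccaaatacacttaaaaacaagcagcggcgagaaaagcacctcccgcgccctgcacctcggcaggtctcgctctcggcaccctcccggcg
DSG2 (chr18:31497927-31498226, plus strand): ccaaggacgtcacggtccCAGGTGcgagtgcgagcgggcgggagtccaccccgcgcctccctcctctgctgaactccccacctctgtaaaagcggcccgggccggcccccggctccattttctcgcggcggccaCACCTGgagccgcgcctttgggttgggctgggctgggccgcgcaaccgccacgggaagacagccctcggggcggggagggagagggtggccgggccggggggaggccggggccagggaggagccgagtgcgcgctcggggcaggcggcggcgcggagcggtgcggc
The DSC2 window held 1 E-box, 156 bases before the start, and the other annotated DSC2 start (chr18:31101211-31101510) held none. The DSG2 window held 2, which lay 232 and 116 bases before the start, and the DSC3 window had no match to these letters. Of 35116 promoters in the table, 20.6% held at least 1 E-box and 3.49% held 2 or more. Of 104 member promoters, 12 held at least 1 E-box (11.5%). A match describes letters only.

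The clustered protocadherins were mostly undetected, and those called were lower in GFP-positive cells. Of 57 clustered genes with a probe, 10 were tested, 4 were lower and 6 did not pass, beside the 22.4% of all tested genes that were lower. PCDHB2, PCDHB17P and PCDHA5 entered the test only through the GFP-negative arrays, so the filter in part fixed this count. The beta cluster had 19 genes with a probe, 4 tested and 3 lower. The alpha cluster had 15 with 4 tested and 1 lower, and the gamma cluster had 23 with PCDHGB4 and PCDHGB6 tested, neither past the threshold.

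PCDHB2, a beta protocadherin, had log2 signals of 4.94 and 5.03 on the GFP-positive arrays against 10.61 and 10.87 on the GFP-negative arrays. Only GFP-negative cells gave a detected signal, and GFP-positive cells were at least 24.2-fold lower (adjusted p = 9.31e-07, limma), with a log2 difference of -3.78 without background correction. Its other probe was detected on no array, with bead signals of 129 and 120 against 166 and 160, so the probes of this gene differed in what they recorded. PCDHB17P, a transcribed pseudogene of the cluster, had 5.18 and 5.19 against 8.02 and 8.32. It was again detected only in GFP-negative cells and was at least 4.07-fold lower (adjusted p = 1.76e-05, limma, log2 difference -1.50 without background correction), and its other probe was detected on no array. PCDHB9 had 6.95 and 6.45 against 7.92 and 7.41. All 4 arrays detected it, the groups lay close without overlapping, and it was 1.95-fold lower (adjusted p = 0.0194, limma), a call that passed in 8 of 11 alternatives. Its adjusted p passed the threshold neither without GFP-positive replicate 2 nor without GFP-negative replicate 1. The other PCDHB9 probe, detected on GFP-positive array 1 only and not tested, had 6.23 and 5.87 against 5.87 and 5.72.

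PCDHA5, an alpha protocadherin, had 5.65 and 5.55 on the GFP-positive arrays against 6.21 and 6.16 on the GFP-negative arrays. These signals sat at the detection limit, the bound was at least 1.03-fold (adjusted p = 0.0294, limma), and the call held in 3 of 10 alternatives, with an adjusted p of up to 0.189. It was lost without each of the 4 arrays in turn. The tested clustered genes that did not pass were PCDHB19P (-0.40 on the log2 scale), PCDHA9 (-0.45), PCDHA12 (-0.18), PCDHAC2 (0.07), PCDHGB4 (-0.27) and PCDHGB6 (0.30), with adjusted p from 0.105 to 0.832 (limma). Of the other 47 clustered genes, 37 were detected on no array. Probes of closely similar protocadherins can bind one another's transcripts, which was not tested.

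In the gene order on chromosome 5, the lower members were not neighbours. PCDHB2 is followed by PCDHB3, PCDHB4, PCDHB5 and PCDHB6, all untested, and then by PCDHB17P. PCDHB7, PCDHB8 and PCDHB16, also untested, stand between PCDHB17P and PCDHB9. Promoters of the lower beta genes with an entry are shown because they share a run of letters, marked in capitals (RefSeq, GRCh38.p14, same window and orientation as above).
PCDHB2 (chr5:141094365-141094664, plus strand): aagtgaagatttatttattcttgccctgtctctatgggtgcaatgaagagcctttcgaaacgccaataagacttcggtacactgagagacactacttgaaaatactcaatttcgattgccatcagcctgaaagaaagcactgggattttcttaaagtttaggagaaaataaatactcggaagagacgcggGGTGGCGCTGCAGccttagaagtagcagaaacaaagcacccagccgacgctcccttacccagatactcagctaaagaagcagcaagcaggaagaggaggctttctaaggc
PCDHB9 (chr5:141186911-141187210, plus strand): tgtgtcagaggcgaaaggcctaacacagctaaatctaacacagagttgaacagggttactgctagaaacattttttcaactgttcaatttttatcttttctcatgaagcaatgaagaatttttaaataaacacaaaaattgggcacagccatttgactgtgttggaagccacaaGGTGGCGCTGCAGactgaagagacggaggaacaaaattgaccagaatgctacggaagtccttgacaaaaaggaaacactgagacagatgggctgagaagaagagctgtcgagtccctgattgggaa
The longest run common to both is GGTGGCGCTGCAG, 13 bases, which begins 60 bases before the PCDHB2 start and 76 bases before the PCDHB9 start. It was chosen after these promoters were compared. On either strand it was found in 15 of 35116 promoters (0.0427%), and 10 of these belonged to beta protocadherins, of 14 beta promoters in the table. Genes with the run included PCDHB4, PCDHB5, PCDHB8, PCDHB10, PCDHB12, PCDHB13, PCDHB15 and PCDHB16, none of which was tested on these arrays. The run holds CGCT, the core of the conserved element of clustered protocadherin promoters. CGCT on either strand stood in 51 of 52 clustered promoters (98.1%) and in 70% of all promoters.

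The called non-clustered protocadherins, PCDH7 and PCDH20, went opposite ways. Of 12 non-clustered protocadherins with a probe, 3 were tested, 1 was higher, 1 lower and 1 not past. Beside this, 20.3% of all tested genes were higher and 22.4% lower. PCDH7 entered the test only through the GFP-positive arrays and PCDH20 only through the GFP-negative arrays, so the filter in part fixed this count. PCDH7, a delta-type protocadherin that binds protein phosphatases, had log2 signals of 9.60 and 9.51 on the GFP-positive arrays against 4.96 and 4.87 on the GFP-negative arrays. It was detected in GFP-positive cells only and was at least 10.8-fold higher (adjusted p = 1.57e-06, limma), with a log2 difference of 2.84 without background correction. Its other tested probe had 7.90 and 7.84 against 5.56 and 6.15 and was at least 3.29-fold higher (adjusted p = 0.000418, limma), while its remaining 2 probes were detected on no array. The smallest log2 difference of this other tested probe over all settings was 0.93, a smaller fold than its bound. PCDH20, another protocadherin outside the clusters, had 4.90 and 4.998 against 9.13 and 10.00. It mirrored PCDH7, with detection in GFP-negative cells only and a GFP-positive signal at least 10.7-fold lower (adjusted p = 1.65e-05, limma), and a log2 difference of -2.81 without background correction. PCDH10 had a log2 difference of -0.38 ± 0.21 (adjusted p = 0.199, limma). PCDH1, PCDH8, PCDH9, PCDH11Y, PCDH12 and PCDH19 were detected on no array, and PCDH11X, PCDH15 and PCDH18 each on 1 GFP-negative array.

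FAT1 was bright in GFP-positive cells and near background in GFP-negative cells. FAT1 is a giant cadherin that bears on actin organisation and growth control. Its brightest probe had log2 signals of 13.61 and 13.69 on the GFP-positive arrays against 5.61 and 6.30 on the GFP-negative arrays. Brightest here refers to the mean over the 4 arrays, and the other probe was brighter on the GFP-positive arrays. The other probe had 13.75 and 13.96 against 5.23 and 5.45. Both probes were near the top of the scale in GFP-positive cells and close to or under the detection limit in GFP-negative cells. On the background-corrected scale the brightest probe was at least 172-fold higher (adjusted p = 9.39e-07, limma). Without background correction its log2 difference was 5.93, a smaller fold than that bound. FAT4, which binds Dachsous, had 5.92 and 6.43 against 6.29 and 6.38, overlapping groups at the detection limit (adjusted p = 0.599, limma). FAT2 was detected on 1 GFP-negative array. DCHS1 and DCHS2, the Dachsous ligands of FAT4, were detected on no array.

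The CELSR cadherins, which work in planar cell polarity, went opposite ways. CELSR2 had log2 signals of 9.01 and 8.75 on the GFP-positive arrays against 7.80 and 7.89 on the GFP-negative arrays, and was 2.05-fold higher (adjusted p = 0.00368, limma). CELSR3 had 8.94 and 9.27 against 10.02 and 10.09, and was 1.93-fold lower (adjusted p = 0.00649, limma). Both were detected on all arrays with no overlap of the groups, and the CELSR3 adjusted p was 0.0605 without GFP-positive replicate 1. CELSR1 was detected on no array. CLSTN1, a calsyntenin that links vesicles to kinesin motors, had a log2 difference of 0.12 ± 0.17 (adjusted p = 0.62, limma), and its other probe had -0.21 (adjusted p = 0.365, limma). CLSTN2 and CLSTN3 were detected on no array.

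**Figure D3:**
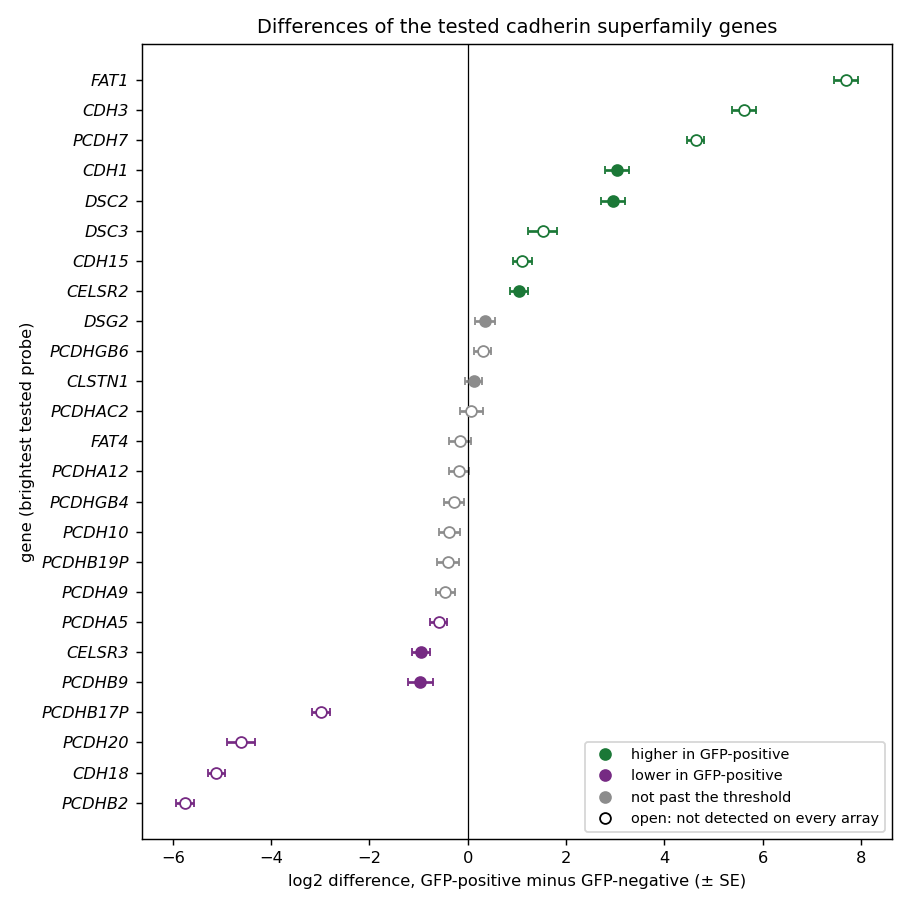
The fitted log2 difference, GFP-positive minus GFP-negative, with its SE (horizontal axis) is drawn for the brightest probe of each of the 25 tested genes (vertical axis). Green points were higher, purple lower and grey not past the threshold, and open points mark genes not detected on every array, whose fitted difference is no bound. The points run from PCDHB2 at -5.75 to FAT1 at 7.69.

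Catenins and other cytoplasmic partners of cadherins were compared next. Of 23 genes listed, 22 had a named probe, 17 were tested, 5 were higher, 3 lower and 9 not past, with a median of 0.01 on the log2 scale beside -0.05 over all tested genes. By the brightest tested probe, 20.3% of all tested genes were higher and 22.4% lower. EVPL (envoplakin) had 10.22 and 10.36 on the GFP-positive arrays against 6.17 and 6.21 on the GFP-negative arrays (adjusted p = 2.66e-06, limma). PKP2 (plakophilin), which anchors desmosomal cadherins, had 8.52 and 8.57 against 5.17 and 5.88, and was at least 5.35-fold higher. PKP2 was detected on neither GFP-negative array and entered the test only through the GFP-positive arrays. The filter thus in part fixed the count of higher genes. PPL (periplakin) had a log2 difference of 1.91 ± 0.19. Other plaque genes did not pass, among them DSP (desmoplakin), named after its values were seen, with log2 differences of -0.52 and -0.41 at its probes (adjusted p = 0.0637 and 0.134, limma), and PKP3, with -0.45. The plaque genes thus did not all rise with DSC2 and DSC3.

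In the opposite direction, LIMA1, which bundles actin at adherens junctions, had a log2 difference of -1.99 ± 0.20 (adjusted p = 0.000191, limma). VCL (vinculin), which links alpha-catenin to actin, had -1.32 ± 0.19 (adjusted p = 0.0013, limma). The remaining called genes, named after their values were seen, were JUP (plakoglobin) and the desmosomal PERP, both higher, and CTNNBIP1, an inhibitor of beta-catenin, which was lower. CTNNBIP1 passed narrowly, with a log2 difference of -0.69 ± 0.23 (adjusted p = 0.0492, limma), and its other probe was not tested. CTNNB1 (beta-catenin) had 11.86 and 11.99 against 10.84 and 11.55, a difference of 0.73 ± 0.25 with an adjusted p of 0.054 (limma). CTNNA1 (alpha-catenin) had -0.19 and CTNNAL1 0.49 and neither passed. CTNNB1 and CTNNA1 thus did not pass while CDH1 itself rose.

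**Figure D4:**
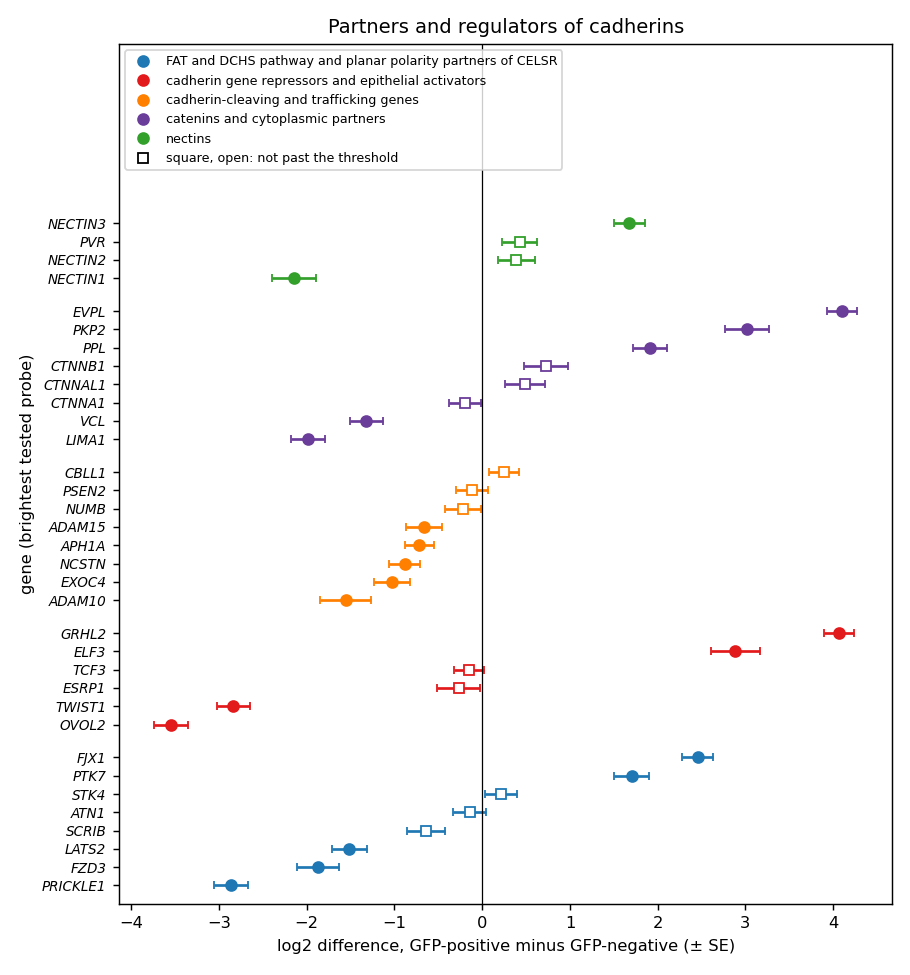
The fitted log2 difference, GFP-positive minus GFP-negative, with its SE (horizontal axis) is drawn for the named partner and regulator genes (vertical axis), coloured by list, with open squares for genes that did not pass. EVPL at 4.10 and GRHL2 at 4.07 lie at the upper end and OVOL2 at -3.55 at the lower end. For genes not detected on every array, GRHL2 among them, the fitted difference is no bound.

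Nectins, the immunoglobulin-type adhesion molecules that sit beside cadherins in adherens junctions, were split. Of 5 genes, 4 were tested, 1 higher, 1 lower and 2 not past, with a median of 0.41. All tested genes gave 20.3% higher and 22.4% lower, and NECTIN1 entered the test only through the GFP-negative arrays. NECTIN3 had 12.15 and 11.93 on the GFP-positive arrays against 10.41 and 10.31 on the GFP-negative arrays, a log2 difference of 1.68 ± 0.18 (adjusted p = 0.0003, limma). NECTIN1, which pairs with NECTIN3 across cells, had 6.21 and 6.003 against 8.58 and 7.91 and was at least 4.16-fold lower (adjusted p = 0.000464, limma). PVR had 0.43 and NECTIN2 0.39, and neither passed. Members of this list thus separated the groups in opposite directions.

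Of 17 regulators of cadherin genes, 6 were tested, 2 higher, 2 lower and 2 not past, with a median of -0.21. Of all tested genes, 20.3% were higher and 22.4% lower by their brightest probe. GRHL2 entered the test only through the GFP-positive arrays, so the filter in part fixed the count of higher genes. The repressors SNAI1, SNAI2, ZEB1, ZEB2 and TWIST2 were detected on no array. TWIST1, a repressor of CDH1, had log2 signals of 9.003 and 9.02 on the GFP-positive arrays against 11.71 and 11.99 on the GFP-negative arrays. It was lower in GFP-positive cells, with a log2 difference of -2.84 ± 0.18 (adjusted p = 2.13e-05, limma). GRHL2, an activator of CDH1, had 9.15 and 9.11 against 5.03 and 5.10, and ELF3, an epithelial activator, had 9.50 and 9.80 against 7.17 and 6.35. Both activators were higher with no overlap (adjusted p = 2.58e-06 and 0.000191, limma). GRHL2 was detected on neither GFP-negative array and was at least 8.03-fold higher. OVOL2, which represses mesenchymal genes, went the other way with 8.66 and 8.38 against 12.18 and 11.95 (adjusted p = 8.73e-06, limma). TCF3 had -0.15 and ESRP1 -0.27, and neither passed. SNAI3 and GRHL1 were each detected on 1 array, and ESRP2, GRHL3, OVOL1 and TCF4 on none.

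Among genes that cleave or traffic cadherins, ADAM10, EXOC4, NCSTN, APH1A and ADAM15 were lower in GFP-positive cells at their brightest probes. Of 12 listed, 11 had a named probe and were tested, 1 was higher, 5 were lower and 5 did not pass, beside 20.3% higher and 22.4% lower of all tested genes. The list's median was -0.48 on the log2 scale, beside -0.05 over all tested genes. ADAM10, the sheddase of CDH1, had 9.49 and 9.59 on the GFP-positive arrays against 10.64 and 11.55 on the GFP-negative arrays, a log2 difference of -1.55 ± 0.29 (adjusted p = 0.00486, limma). EXOC4 of the exocyst had -1.03 ± 0.20. NCSTN and APH1A, subunits of the gamma-secretase that cuts cadherin tails, had -0.88 ± 0.18 and -0.72 ± 0.17, and ADAM15 had -0.67 ± 0.21. Other tested probes did not pass for EXOC4 (-0.29), APH1A (-0.52) and 1 of ADAM15 (0.21), with adjusted p of 0.236, 0.0576 and 0.373 (limma). The other ADAM10 probe (-1.56) and further ADAM15 probes (-0.89 and -0.90) were lower. Of the list's 20 probes, 1 was higher, 8 were lower and 11 did not pass. The higher gene, named after its value was seen, was RAB11A of recycling endosomes. NUMB had -0.22, CBLL1, the ubiquitin ligase of CDH1, 0.25 and PSEN2 -0.12, and none of these passed.

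The last list held the FAT and Dachsous pathway and the planar polarity partners of CELSR. Of 21 genes, 16 were tested, 4 higher, 3 lower and 9 not past, with a median of 0.07. Among all tested genes 20.3% were higher and 22.4% lower, and FZD6 entered the test only through the GFP-positive arrays. FJX1, related to the Drosophila kinase Four-jointed that modifies Fat and Dachsous, had 10.02 and 9.88 on the GFP-positive arrays against 7.43 and 7.56 on the GFP-negative arrays (adjusted p = 3.62e-05, limma). PTK7, a polarity co-receptor, had a log2 difference of 1.70 ± 0.20. PRICKLE1, a cytoplasmic polarity protein, had 7.94 and 8.06 against 11.02 and 10.70 (adjusted p = 2.47e-05, limma). FZD3, a frizzled receptor that works with CELSR3 in mouse neurons, had -1.87 ± 0.24, and LATS2, a kinase of the Hippo pathway downstream of Fat, had -1.51 ± 0.20. The frizzled FZD6 and the Hippo kinase STK3, named after their values were seen, were the other higher genes, with FZD6 at least 2.68-fold higher (adjusted p = 0.00685, limma). The frizzled receptors thus went opposite ways. SCRIB had -0.64 ± 0.22 with an adjusted p of 0.0506 (limma), STK4 had 0.21 and ATN1 -0.14, and VANGL1 and VANGL2 were not tested.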

How the data were processed

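Per the file headers, the authors deposited the mean bead intensity of every probe without normalization, beside a detection p-value from the negative controls. Their other deposited table holds log2 values with no stated normalization, which matched quantile-normalized log2 signals to within 0.00417 (columns with a median of 7.53, not centred per gene). The submitters' processing notes name GenomeStudio 2009.2. No source used here says if background had been subtracted.

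In R 4.3.3, limma 3.58.1's neqc took normexp background from the detection p-values, an offset of 16 and quantile normalization to log2 values. The 2 groups follow the titles and the GFP label. Probes that either group detected (p under 0.05) on both of its arrays, 18098 in all, entered lmFit and eBayes, with 2 residual and 5.31 prior df. Adjusted p-values (2-sided, Benjamini-Hochberg) under 0.05 were called. For a bound, each dim array's value was raised to its lowest detected probe's where it lay below, and group means were then compared. The number of arrays limits precision.

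Probes were named from the platform annotation. Of all probes, 30111 had 1 symbol, 8 several and 17202 none here, and 30072 were matched by gene identifier to the RefSeq table (GRCh38.p14). The brightest tested probe stands for a gene in lists. Named with values were CDH1, CDH2, CDH3, CDH5, CDH11, FAT1, DSC2 and DSG2, called members that changed over 2-fold, other tested members, and of each companion list up to 5 called and 3 other genes. CELSR3, PCDHB9 and PCDHA5, below 2-fold, were given in full after their values were seen. Members, lists and subgroups were chosen with earlier results of these data known. Promoters of the called type I classical cadherins were to be shown, but the promoter table used here lists none of them, and the desmosomal and beta protocadherin promoters were chosen after values were seen. Listed genes without a named probe were not analysed here.

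The series text describes pairs made on different days, but no label ties a replicate number to a day. Alternatives were no background correction, 75th percentile and cyclic loess scaling, no detection filter, detection on all 4 arrays, a replicate block, the deposited log2 table, and leaving out each array.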

Additional observations from a re-analysis of the deposited data

How the results depend on the processing

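With detection required on all 4 arrays, 3 member probes were higher and 2 lower, since that setting tests fewer probes. Leaving out 1 array at a time gave 11 to 12 member probes higher and 5 to 10 lower, and 4598 to 7110 of all tested probes called, with 4598 without GFP-positive replicate 2. The lone array of a group was then assumed to vary like the others. No label ties replicate numbers to isolation days, and deviations of same-numbered arrays correlated at 0.219 over probes. With the replicate number as a block, 12 member probes were higher and 7 lower. Calls gained among the named genes were DSG2's dimmer probe (adjusted p = 0.00643), CTNNB1 (0.0182), SCRIB (0.0164) and SPDEF (0.043), and none was lost (limma). Every called member kept its direction in each setting that tested it. Called members lost in some setting were PCDHA5, PCDHB9 and CELSR3. Elsewhere, called members gained were DSG2's dimmer probe, PCDHB8 (lower, without a detection filter) and another PCDHGB6 probe (lower, without GFP-negative replicate 2). Without GFP-negative replicate 1, when detection on 1 array sufficed, probes of CDH11, PCDH11X, PCDH18, PCDHB13 and PCDHGA1 were called. Without background correction differences shrank, for CDH1 to 2.31 and for DSC2 to 1.65 on the log2 scale.

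Signs reversed only in named genes that did not pass. With 75th percentile scaling, CLSTN1 had -0.047 and XBP1 -0.037. With 1 array left out in turn, PCDHAC2 ranged from -0.25 to 0.37, FAT4 from -0.41 to 0.10, PCDHA12 from -0.40 to 0.035, XBP1 from -0.24 to 0.50 and CD14 from -0.74 to 0.13. In all, member genes gave 241 values on the same side of the threshold with the same sign, 11 weaker and 5 reversed. Of all tested probes, 3394 were higher and 3928 lower as reported, cyclic loess gave 3731 and 3421, and 75th percentile scaling gave 3179 and 4466. The latter moved the median of all tested probes from -0.05 to -0.12. Signals near background compress differences, so the fitted values of genes detected in 1 group only are limited by the detection floor.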
